A study of Mus musculus with 12 samples.

Results

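The cells described here were barcodes of mouse liver single-cell RNA libraries in which S100a8 and S100a9, the calprotectin subunits of neutrophils and some monocytes, together held at least 5% of all unique molecular identifiers (UMIs, each 1 captured RNA molecule), while Camp and Ngp, cargo of the secondary granules of the myelocyte stage, together held under 1%. The gate had been proposed for mature neutrophils past the Camp stage, so the members were chosen by the measured levels of these 4 genes, which are given only as a description. It took 2649 of the 184493 barcodes that had at least 1000 UMIs and at most 15% mitochondrial UMIs, a share of 1.44%. Barcodes with the same S100a8 and S100a9 minimum but Camp and Ngp at or above 1%, called Camp-rich below, numbered 17831.

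The livers came from a cross of Jag1Ndr/+ mice, which carry the Nodder allele of the Notch ligand gene Jag1, and were taken before birth, at embryonic stage E16.5, or at postnatal day 3 (P3). All livers were enzymatically dissociated and depleted of dead cells on magnetic columns, and the labels name TrypLE in the digestion at E16.5 only. The genotypes were Jag1+/+, Jag1Ndr/+ and Jag1Ndr/Ndr with 2 individuals each per stage, and the Jag1Ndr/Ndr pups at P3 were picked for jaundice. The allele came through the germ line and was carried by every cell of the animal, and a P3 pup labelled Jag1Ndr/Ndr was both homozygous and icteric. The homozygous strain is written in shortened form in the labels of its samples and in full in the series' design text.

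Of 12 deposited libraries 9 were used, because several held the same cells. The E16.5 matrix deposited for Jag1+/+ 2 was identical to the one for Jag1Ndr/+ 2 and was counted once, as the E16.5 shared library. At P3 all 15754 barcodes of Jag1Ndr/+ 2 recurred in Jag1+/+ 2, and Jag1Ndr/Ndr 1 shared 19927 barcodes with Jag1+/+ 1. Jag1Ndr/Ndr 2 shared 18105 barcodes with Jag1+/+ 1, 16145 with Jag1+/+ 2 and 18130 with Jag1Ndr/Ndr 1. The libraries labelled P3 Jag1+/+ 1 and 2 are therefore called P3 A and P3 B, with genotype unclear. P3 Jag1Ndr/Ndr 1 was used without the barcodes of A, and P3 Jag1Ndr/Ndr 2 and Jag1Ndr/+ 2 were left out. What remained of P3 Jag1Ndr/Ndr 1 keeps its deposited label, and its genotype was not checked. Any 2 of the 9 libraries then shared at most 0.940% of barcodes. Passing barcodes per library ranged from 15024 to 29034 and their median UMIs from 2961 to 9256. Values are listed in the order E16.5 Jag1+/+ 1, E16.5 shared, E16.5 Jag1Ndr/+ 1, E16.5 Jag1Ndr/Ndr 1, E16.5 Jag1Ndr/Ndr 2, then P3 A, P3 B, P3 Jag1Ndr/Ndr 1 and P3 Jag1Ndr/+ 1. The gated cells in them numbered 210, 441, 339, 314 and 170 at E16.5 and 514, 327, 223 and 111 at P3. Stage went together with the digestion, the gene annotation and the software version of the deposited matrices, and these cannot be told apart.

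Neutrophils fill their granules in sequence as they mature, and the granule proteins mark the stage. Promyelocytes make the primary (azurophil) granule enzymes myeloperoxidase, neutrophil elastase and proteinase 3 (Mpo, Elane, Prtn3), myelocytes make secondary granule proteins such as lactoferrin and cathelicidin (Ltf, Camp), and later cells make gelatinase granules (Mmp8, Mmp9) and the receptors and secreted proteins of blood neutrophils (Cxcr2, Csf3r, Retnlg). The fetal liver is the main site of this process before birth, and it is handed over to the bone marrow around birth.

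The sequences just before the starts of a primary granule gene (Elane), 2 late genes (Retnlg, Mmp8) and an interferon gene (Isg15) are shown because these genes mark the groups and the stage difference described below. They come from RefSeq on GRCm38.p6, run 5′ to 3′ on the strand of the gene, and end before its annotated start; capitals mark the matches, on either strand, to the 1 motif named for that gene. In Elane (chr10:79886062-79886246, plus strand) the match is to GAGGAA, a core bound by PU.1, in Retnlg (chr16:48872358-48872607, plus strand) and Mmp8 (chr9:7558179-7558428, plus strand) to TTNCNNAA, a loose form of the C/EBP motif, and in Isg15 (chr4:156200819-156201068, minus strand) to a core of the interferon-stimulated response element, GAAA and GAAA with any 2 bases between them, with 3 matches that overlap. Matches to the other motifs are not in capitals: Mmp8 also held 1 to GAGGAA and Isg15 also held 1 to TTNCNNAA.
Elane: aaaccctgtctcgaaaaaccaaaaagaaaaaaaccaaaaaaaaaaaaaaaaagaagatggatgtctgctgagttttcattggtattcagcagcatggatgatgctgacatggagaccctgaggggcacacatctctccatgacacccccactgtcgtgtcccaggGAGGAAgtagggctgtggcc
Retnlg: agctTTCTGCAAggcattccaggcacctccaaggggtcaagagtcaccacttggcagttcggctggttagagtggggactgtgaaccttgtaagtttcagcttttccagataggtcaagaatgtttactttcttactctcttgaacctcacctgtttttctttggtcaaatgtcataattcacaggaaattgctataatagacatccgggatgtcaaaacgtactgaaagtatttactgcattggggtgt
Mmp8: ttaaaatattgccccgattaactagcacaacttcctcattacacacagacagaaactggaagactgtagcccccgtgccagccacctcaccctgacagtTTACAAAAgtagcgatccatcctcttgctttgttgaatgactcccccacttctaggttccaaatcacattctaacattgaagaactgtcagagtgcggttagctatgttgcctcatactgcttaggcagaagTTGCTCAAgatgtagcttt
Isg15: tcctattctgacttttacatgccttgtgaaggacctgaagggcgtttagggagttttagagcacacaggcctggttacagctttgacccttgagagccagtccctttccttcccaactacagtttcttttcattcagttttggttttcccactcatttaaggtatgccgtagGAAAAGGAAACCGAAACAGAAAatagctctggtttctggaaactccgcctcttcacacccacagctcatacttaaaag
Over the 250 bases before the start, GAGGAA was present in 23.1%, TTNCNNAA in 36.9% and the response element core in 3.04% of 27025 RefSeq promoters. GAGGAA was held by 6 of 11 primary granule, 11 of 17 secondary granule, 7 of 10 tertiary granule and 7 of 20 circulating neutrophil genes with a promoter in the table, and TTNCNNAA by 4, 10, 7 and 10 of them. Of 17 interferon response genes 8 held the response element core (Ifit1, Ifit3, Isg15, Rsad2, Ifitm2, Cxcl10, Bst2, Gbp2). A match is a run of letters and says nothing of binding in these cells.

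The gate held more than late neutrophils. The proposed label was checked against its marker genes S100a8, S100a9, Retnlg, Mmp8 and Mmp9. S100a8 and S100a9 were high in all gated cells by the rule, but the other 3 were carried by some of the cells only, and many of the remaining cells carried primary granule genes instead. Cells with at least 0.2% of UMIs on Retnlg, Mmp8 and Mmp9 and under 0.2% on Mpo, Elane and Prtn3 are called Retnlg-rich, and cells with the reverse Elane-rich; these limits were set after the distribution had been seen. Of the 2649 gated cells, 1338 (50.5%) were Retnlg-rich, 951 (35.9%) were Elane-rich, 344 (12.99%) were low in both sets and 16 (0.604%) were high in both. All 5 marker genes were then used to choose the Retnlg-rich cells, so they are no check of a name, and the gate and its parts are called by their rules and leading genes. Few cells lay near the limits: 142 had between 0.1% and 0.4% of UMIs on the late set and 91 on the primary granule set. With every cell thinned to 1000 UMIs, 160 cells (6.04%) still held at least 1 UMI of each set.

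**Figure D1:**
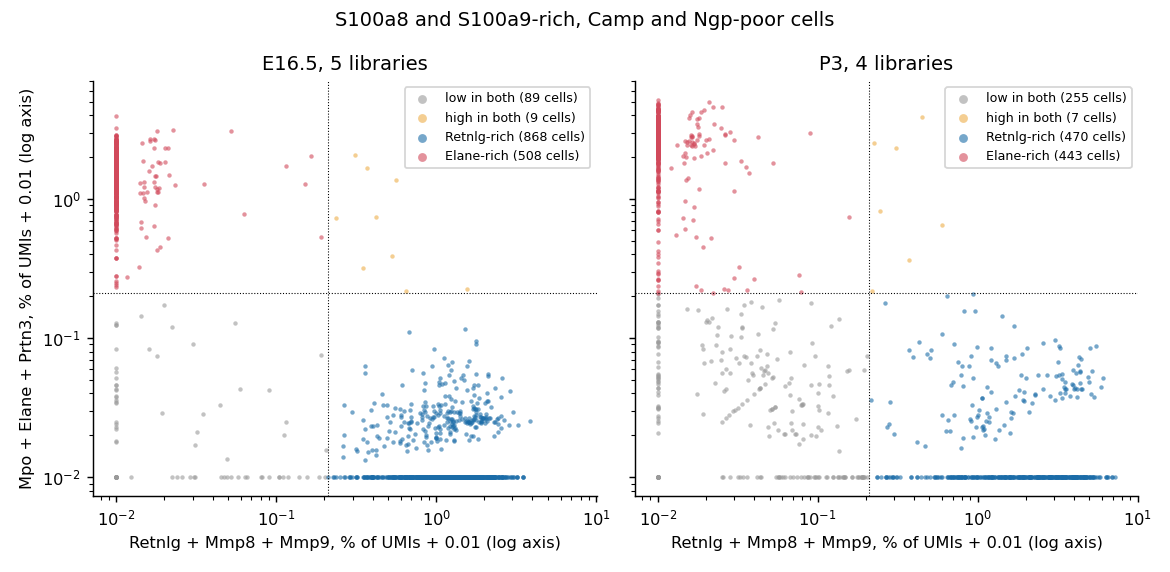
Share of each gated cell's UMIs on Retnlg, Mmp8 and Mmp9 (x axis) against its share on Mpo, Elane and Prtn3 (y axis), in percent plus 0.01 on log axes, 1 point per cell, for 5 E16.5 libraries (left) and 4 P3 libraries (right), with dotted lines at the 0.2% limits. The 868 and 470 Retnlg-rich cells (blue) and the 508 and 443 Elane-rich cells (red) lie along opposite axes, and 9 and 7 cells lie above both limits.

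Cells close to the gate's thresholds were of both kinds. Here the 0.2% limits of the late set and the primary granule set were applied singly, so a cell high in both counts in both shares. Between 5% and 6% of UMIs on S100a8 and S100a9 lay 375 gated cells. Of these, 20.8% reached the limit of the late set and 51.5% that of the primary granule set. Just below, at 4% to 5%, the same shares were 14.0% and 53.9% of 456 cells. On the Camp and Ngp side, 261 gated cells lay between 0.8% and 1%. Of these, 61.3% reached the limit of the late set and 34.5% that of the primary granule set. The 300 cells between 1% and 1.2%, outside the gate, gave 54.3% and 33.7%. No test was run on these shares.

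The proportions varied among libraries. Retnlg-rich cells made up 49.0%, 43.5%, 70.2%, 65.0% and 77.1% of gated cells in the E16.5 libraries and 37.7%, 61.5%, 18.8% and 29.7% in the P3 libraries. Elane-rich cells made up 44.3%, 50.1%, 24.5%, 24.8% and 19.4% at E16.5 and 34.0%, 22.0%, 65.0% and 45.9% at P3. P3 Jag1Ndr/Ndr 1 had the lowest Retnlg-rich share and the highest Elane-rich share. The Retnlg-rich mean was 61.0% ± 14.2 at E16.5 (SD, n = 5) and 36.9% ± 18.1 at P3 (SD, n = 4; two-sided exact permutation p = 0.0635), and the groups overlapped. The exact permutation p was 0.0476 at 2000 UMIs or more (61.0% and 29.9%), 0.0476 at no more than 10% mitochondrial UMIs (60.9% and 34.0%) and 0.0357 without P3 B (61.0% and 28.8%), so this call depended on those settings. For Elane-rich cells the means were 32.6% ± 13.6 and 41.8% ± 18.3 (exact permutation p = 0.413). With 5 against 4 libraries the smallest p this test can give is 0.0159.

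The cells low in both sets were fewer at E16.5, at 6.19%, 4.76%, 5.31%, 9.87% and 3.53% of gated cells, than at P3, at 27.4%, 15.9%, 16.1% and 23.4%. Their mean rose from 5.93% ± 2.40 (SD, n = 5) to 20.7% ± 5.67 (SD, n = 4), the groups did not overlap, and the exact permutation p was 0.0159, the smallest the design allows. The cells low in both sets numbered only 13, 21, 18, 31 and 6 at E16.5, and 141, 52, 36 and 26 at P3. The 6 cells of E16.5 Jag1Ndr/Ndr 2 held 57242 UMIs in all, so levels there rest on few cells and UMIs. These cells carried monocyte markers. In them the summed level of 6 monocyte marker genes was 835 to 1810 CPM at E16.5 and 3536 to 4733 CPM at P3. CPM are a gene's UMIs scaled to a common total per cell group and library. In Retnlg-rich cells the sums were 202 to 394 and 523 to 622 CPM, and all 6 genes were detected in both cell groups. Ccr2, the receptor that draws monocytes out of the marrow, stood at 131, 149.6, 75.5, 137 and 17.5 CPM in the cells low in both sets at E16.5 and at 356, 353, 359 and 394 CPM at P3. In the whole gate it stood at 0.571 to 17.9 CPM at E16.5 and 60.7 to 101 CPM at P3. The same cells also carried markers of other classes. The 7 neutrophil precursor markers summed to 5487 to 8475 CPM at E16.5, above the monocyte sum in each E16.5 library, and to 3051 to 7285 CPM at P3, and the 8 erythroid markers to 70021 to 326031 CPM and 3284 to 57324 CPM, so erythroid RNA moved with stage as well. At E16.5 the 8 hepatocyte genes summed to 21309, 8493, 1392, 1876 and 87960 CPM, above the monocyte sum in each E16.5 library, and to 162 to 516 CPM at P3. Stage differences are given below for the whole gate and for the Retnlg-rich cells, which leave out the Elane-rich cells as well; the part of the cells low in both sets alone was not tested.

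**Figure D2:**
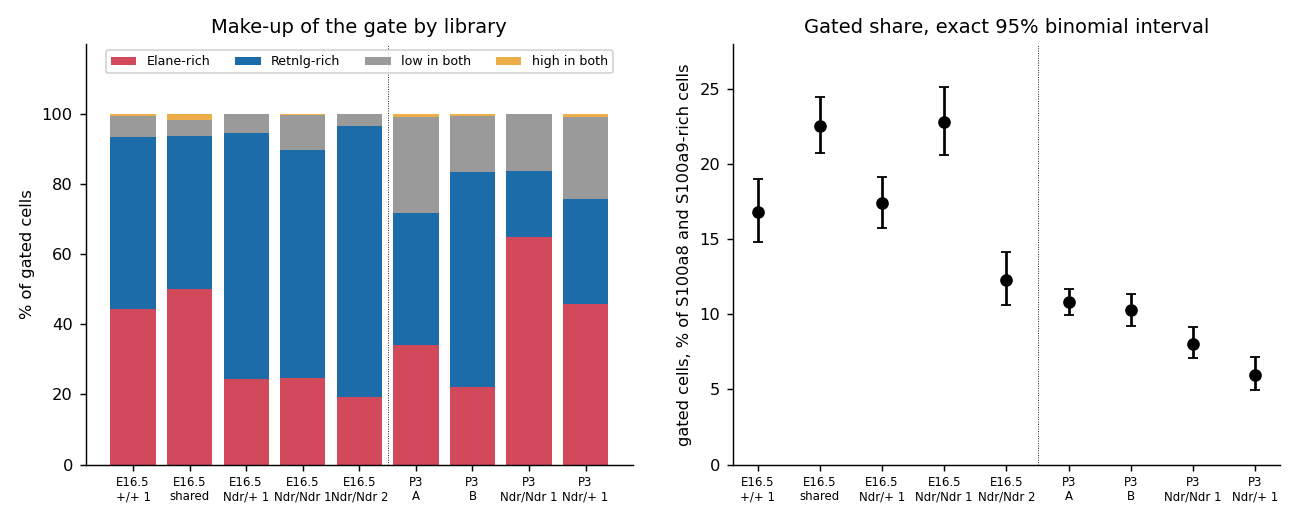
Left, percent of gated cells (y axis) that were Elane-rich, Retnlg-rich, low in both sets or high in both, as 1 stacked bar per library; right, gated cells as a percent of S100a8 and S100a9-rich cells (y axis) with exact binomial 95% intervals that cover counting error only. The Retnlg-rich part runs from 18.8% in P3 Jag1Ndr/Ndr 1 to 77.1% in E16.5 Jag1Ndr/Ndr 2, and the share on the right is at most 10.8% at P3 and at least 12.3% at E16.5.

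Gated cells were 1.35% ± 0.579 of passing barcodes at E16.5 (SD, n = 5) and 1.60% ± 0.732 at P3 (SD, n = 4; exact permutation p = 0.54). Against the barcodes that met the S100a8 and S100a9 minimum, the gated share was 16.8%, 22.6%, 17.4%, 22.8% and 12.3% in the E16.5 libraries and 10.8%, 10.3%, 8.05% and 5.98% in the P3 libraries. Every P3 library was below every E16.5 library, with means of 8.77% ± 2.21 and 18.4% ± 4.41 (exact permutation p = 0.0159). By the fixed 1% cut, Camp-rich cells were thus a larger part of the S100a8-rich cells at P3. The median Camp and Ngp share of Camp-rich cells was 3.25% to 4.06% in E16.5 libraries and 6.01% to 7.51% in P3 libraries. Their median globin share was 10.2% to 18.4% and 0.296% to 0.542%. The part of these differences in the gated share was not tested.

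The Retnlg-rich and Elane-rich cells differed from Camp-rich cells in opposite gene sets; since the cells were sorted by these genes or by genes of the same cells, the next values are descriptions with no test. Elane, the elastase gene on chromosome 10 (79886247 to 79888215, plus strand, GENCODE vM21 on GRCm38), stood at 4794, 3264, 4889.7, 6269.9 and 4096 CPM in Elane-rich cells at E16.5 and 9167, 7677, 12424 and 7799 CPM at P3. In Camp-rich cells Elane was between 177 and 897 CPM, and in Retnlg-rich cells between 2.24 and 38.2 CPM. Retnlg, the resistin-like protein of blood neutrophils on chromosome 16 (48872621 to 48874496, plus strand), ran the other way. It stood at 9800.0, 7918, 8556, 8388 and 11189.5 CPM in Retnlg-rich cells at E16.5 and 15349.5, 20029, 10186 and 18392 CPM at P3, at 606 to 1437 CPM in Camp-rich cells and at 4.26 to 65.2 CPM in Elane-rich cells. The 3 groups did not overlap for either gene.

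The collagenase Mmp8 (chromosome 9, 7558456 to 7568485, plus strand) was at 2328, 2013, 1205, 2144 and 1625 CPM in Retnlg-rich cells at E16.5 and 1889.5, 1285, 1019 and 2035 CPM at P3. It was at 296 to 729 CPM in Camp-rich cells and at 0 to 28.9 CPM in Elane-rich cells. The gelatinase Mmp9 (chromosome 2, 164940780 to 164955850, plus strand) was at 538 to 1321 CPM, 170.2 to 396 CPM and 0 to 8.06 CPM in the same order. Ltf, lactoferrin of the secondary granule, peaked in between, at 2652 to 8249.6 CPM in Camp-rich cells, 449.9 to 1479 CPM in Retnlg-rich cells and 2.43 to 59.1 CPM in Elane-rich cells. Cxcr2, the chemokine receptor that carries neutrophils into the blood, was at 6.29 to 26.3 CPM in Elane-rich, 51.4 to 97.9 CPM in Camp-rich and 90.2 to 547 CPM in Retnlg-rich cells, where P3 Jag1Ndr/Ndr 1 was the lowest. S100a8 itself did not separate them, at 39662 to 61858 CPM in Elane-rich and 46036 to 70348 CPM in Retnlg-rich cells. The transcription factor gene Cebpe, needed for secondary granules, was at 241 to 827 CPM in Elane-rich, 293 to 924 CPM in Camp-rich and 109.5 to 395 CPM in Retnlg-rich cells.

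**Figure D3:**
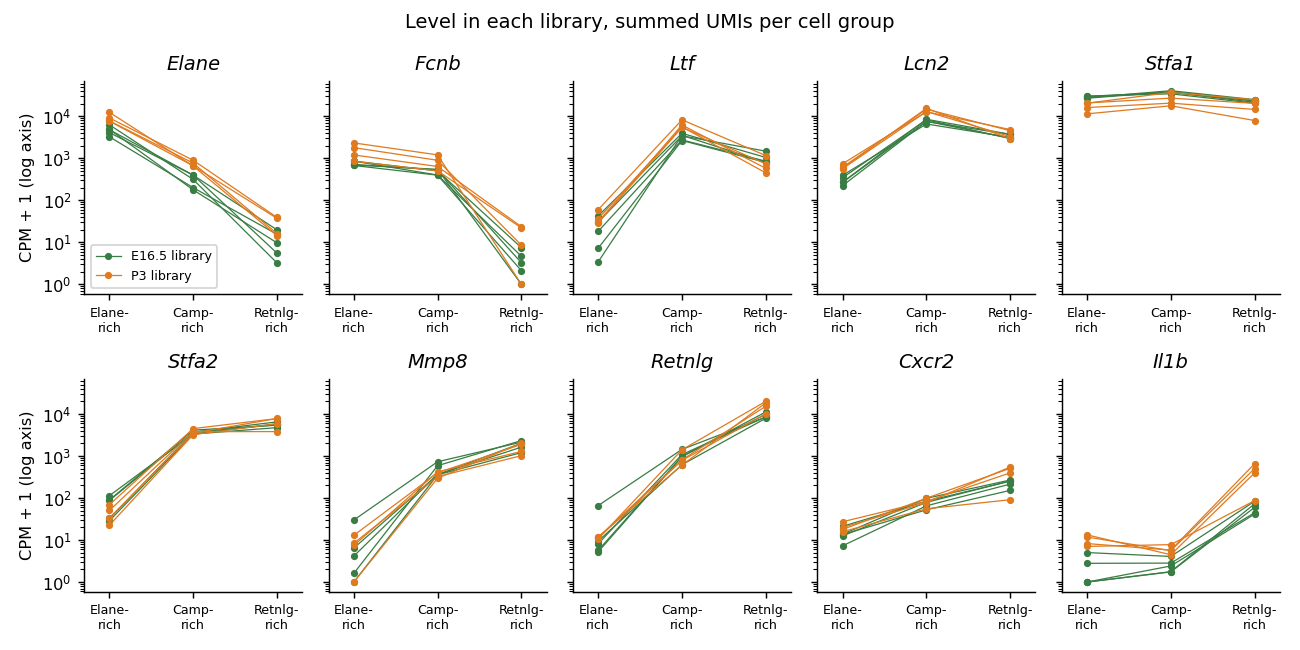
Levels of 10 genes (y axis, CPM plus 1 on a log axis) in Elane-rich, Camp-rich and Retnlg-rich cells (x axis), 1 point per library with a line joining the groups of each library, green for E16.5 and orange for P3. Elane falls and Retnlg rises from left to right with no overlap of the 3 groups, Ltf is highest in Camp-rich cells, and Stfa1 is high in all 3.

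Gene lists are described without the genes that chose the cells, though still in the cells those genes chose. Of 8 other primary granule genes with at least 20 CPM, 5 were lower and 1 was higher in Retnlg-rich than in Camp-rich cells in all 9 libraries, whereas 9 of 9 were higher in Elane-rich than in Camp-rich cells. Of all other genes at this level, 16.8% were higher and 16.2% lower in all 9 libraries in the Retnlg-rich comparison, and 44.8% and 16.2% in the Elane-rich comparison. Circulating neutrophil genes were higher in Retnlg-rich than in Camp-rich cells in 18 of 21 cases, and 11 of 13 interferon response genes, 13 of 17 Fc and pattern receptor genes and 6 of 11 tertiary granule genes were higher too. Among 20 secondary granule genes 14 were lower and 1 was higher, and among 20 proliferation genes 13 were lower and 0 higher. The stefin A genes, a cluster of cysteine protease inhibitors, were split: Stfa1 stood at 7935 to 24958 CPM in Retnlg-rich and 11439.9 to 30219 CPM in Elane-rich cells, while Stfa3 stood at 3307 to 7457 CPM and 122 to 512 CPM. These stefin genes are near-identical copies, and reads could have been split among them.

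By a fixed rule of size, the 15 genes with the largest ratios over Camp-rich cells, among 325 that qualified, were Il1b, Clec4d, Cxcl2, Ccl6, Jaml, Pla2g7, Cyp4f18, Retnlg, S100a6, Slc7a11, Dusp1, Cd84, Fxyd5, Junb and Hacd4 in Retnlg-rich cells. Il1b, the cytokine interleukin 1 beta, was at 40.5 to 654 CPM in Retnlg-rich and at 0.742 to 6.78 CPM in Camp-rich cells. Cxcl2, a neutrophil-attracting chemokine, was at 104 to 729 CPM and 5.26 to 103 CPM; the highest Camp-rich library, E16.5 Jag1Ndr/Ndr 1, came close to the lowest Retnlg-rich one. The 15 most reduced of 227 qualifying genes were Fcnb, Elane, Ms4a3, Prtn3, Chil3, Lta4h, Mpo, Gca, Zmpste24, Ero1l, Serpinb1a, Tmed3, Tagln2, Hmgn2 and Ltf, which include the secondary granule genes Fcnb, Chil3 and Ltf. Retnlg among the highest and Elane, Prtn3 and Mpo among the lowest were fixed by the choice of the cells.

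The stage comparison asks what differed between neutrophils of the fetal and the newborn liver. It was made on UMI sums per library, 5 at E16.5 against 4 at P3, with edgeR's quasi-likelihood test and Benjamini-Hochberg adjustment over all genes tested; "rose" and "fell" mean an adjusted p under 0.05 for P3 against E16.5. In Retnlg-rich cells 722 of 5815 genes rose (12.4%) and 811 fell (13.9%). Without P3 A and B, the libraries of unclear genotype, 449 genes changed instead of 1533. Fold changes are relative to the edgeR scaling: over the 1971 genes with a mean of at least 50 CPM, the log2 ratio of mean CPM, P3 over E16.5, was a median of 0.29 above the fitted log2 fold change, so rises look larger and falls smaller in CPM than in the fit. Retnlg-rich cells numbered 103, 192, 238, 204 and 131 at E16.5 and 194, 201, 42 and 33 at P3. In P3 Jag1Ndr/Ndr 1 and P3 Jag1Ndr/+ 1 they held only 221686 and 65844 UMIs, so low levels there rest on few UMIs. In P3 Jag1Ndr/+ 1, 1 UMI gave 15.2 CPM. Retnlg-rich cells had a median of 5835 to 8058 UMIs at E16.5 and 1638 to 4690.5 at P3. Globin took 20.4% to 34.3% and 11.01% to 19.3% of their summed UMIs. The median globin share per cell was 16.4% to 28.2% in E16.5 libraries and only 0.478% to 0.966% in P3 libraries, so at P3 most of the sum lay in a minority of cells. Mitochondrial genes took a median of 1.23% to 1.73% in E16.5 libraries and 2.78% to 8.48% in P3 libraries, highest in P3 A, and the stages did not overlap. The part of depth, globin RNA and mitochondrial share in single results was not tested beyond the alternatives listed at the end.

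Neutrophil and granule gene lists are read against the 12.4% of all genes that rose and the 13.9% that fell. Retnlg, Mmp8 and Mmp9 were used to choose these cells, so no stage test is given for them. Cxcr2 stood at 253, 252, 151, 267 and 213 CPM at E16.5 and 397, 509, 90.2 and 547 CPM at P3, with a log2 fold change of 0.45 (SE 0.34, edgeR adjusted p = 0.36). The spread among P3 libraries was wider than the difference, and P3 Jag1Ndr/Ndr 1 lay below all E16.5 libraries. Of 21 tested circulating neutrophil genes 2 rose, Ccl6 and Slpi, and 0 fell. Slpi, a secreted inhibitor of elastase, was at 521 to 953 CPM at E16.5 and 1357 to 2582 CPM at P3. Of 12 tertiary granule genes 3 rose (Mmp25, Ctsd, Fcgr3) and 2 fell (Fpr2, Plaur), and of 18 secondary granule genes 2 rose (Cyba, Ltb4r1) and 2 fell (Olfm4, Adpgk). Of 5 tested primary granule genes 3 rose (Ctsc, Hexa, Cd63), all 3 lysosomal proteins found in many cells; all 3 calls were lost without P3 A and B, as were those of Slpi, Ctsd, Fcgr3, Cyba and Ltb4r1.

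Interferon response genes rose together. Of 22 listed genes 15 had enough counts to be tested, 12 rose and 0 fell, with a median log2 fold change of 2.18 against a median of 0.00 over all genes; those that rose included Isg15, Ifitm1, Ifitm2, Ifitm3, Irf7, Oasl2, Rtp4 and Ifi27l2a. The filter on low counts also kept genes with enough counts at 1 stage only, and Oasl2 passed it through the P3 libraries. The 12 rises and the median of 2.18 include such genes. Without P3 A and B 4 of the 12 calls were lost, that of Ifitm1 among them. The antiviral membrane protein gene Ifitm3 was at 149, 174, 206, 267 and 178 CPM at E16.5 and 762, 1232, 1308 and 1352 CPM at P3. Every P3 library was above every E16.5 library, a condition for the genes named by size, of which Ifitm3 is 1. The log2 fold change was 2.18 (SE 0.26, edgeR adjusted p = 9e-06). Isg15, a ubiquitin-like protein made on interferon signalling, was at 43.2, 6.47, 25.7, 34.7 and 21.7 CPM and then 68.5, 171, 221 and 213 CPM. P3 A was the lowest of the P3 libraries and still above all at E16.5 (log2 fold change 2.18, SE 0.38, edgeR adjusted p = 0.00037), and the call was lost when doublet candidates were left out. Ifi27l2a went from 6.82, 13.8, 20.7, 33.0 and 7.55 CPM to 302, 551, 686 and 714 CPM, a log2 fold change of 4.56 (SE 0.38, edgeR adjusted p = 1.8e-07). Oasl2, a relative of the antiviral 2'-5' oligoadenylate synthases, went from 0.944 to 8.39 CPM at E16.5 to 44.8 to 106 CPM at P3, and Rtp4 from 3.41 to 22.4 CPM to 84.3 to 156 CPM.

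Ifi27l2a, Ifitm3 and Isg15 were also higher at P3 outside the gate. In all other passing barcodes Ifi27l2a had a mean of 24.1 ± 9.25 CPM at E16.5 (SD, n = 5) and 165 ± 55.4 CPM at P3 (SD, n = 4), and Ifitm3 had 73.3 ± 18.8 and 353 ± 108 CPM. There Isg15 had 9.08 to 59.8 CPM in E16.5 libraries and 93.7 to 415 CPM in P3 libraries, in each P3 library above its level in the Retnlg-rich cells. In the fit that compares the stage difference of Retnlg-rich cells with that of Camp-rich cells in the same libraries, Ifitm3 differed by -0.05 (SE 0.20, edgeR adjusted p = 0.95), Isg15 by 0.22 (SE 0.27, edgeR adjusted p = 0.79) and Ifi27l2a by 0.46 (SE 0.23, edgeR adjusted p = 0.39) on the log2 scale. For these 3 genes a difference between the stages of maturation was not detected. Approximate intervals of about 2 SE, with the SE derived from the test statistic, leave room for one. Of 22 interferon genes in that fit, in which 1.9% of all genes passed, 5 had a more positive stage difference in Retnlg-rich than in Camp-rich cells: Ifit3, Rsad2, Ifitm1, Ifitm2 and Slfn4. Only Ifitm1 and Ifitm2 of these were among the genes that rose in Retnlg-rich cells. Ifitm1 gave 1.11 (SE 0.25, edgeR adjusted p = 0.0091). All 5 calls were lost without P3 A, and again without P3 B, and 4 of the 5 at 2000 UMIs or more.

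**Figure D4:**
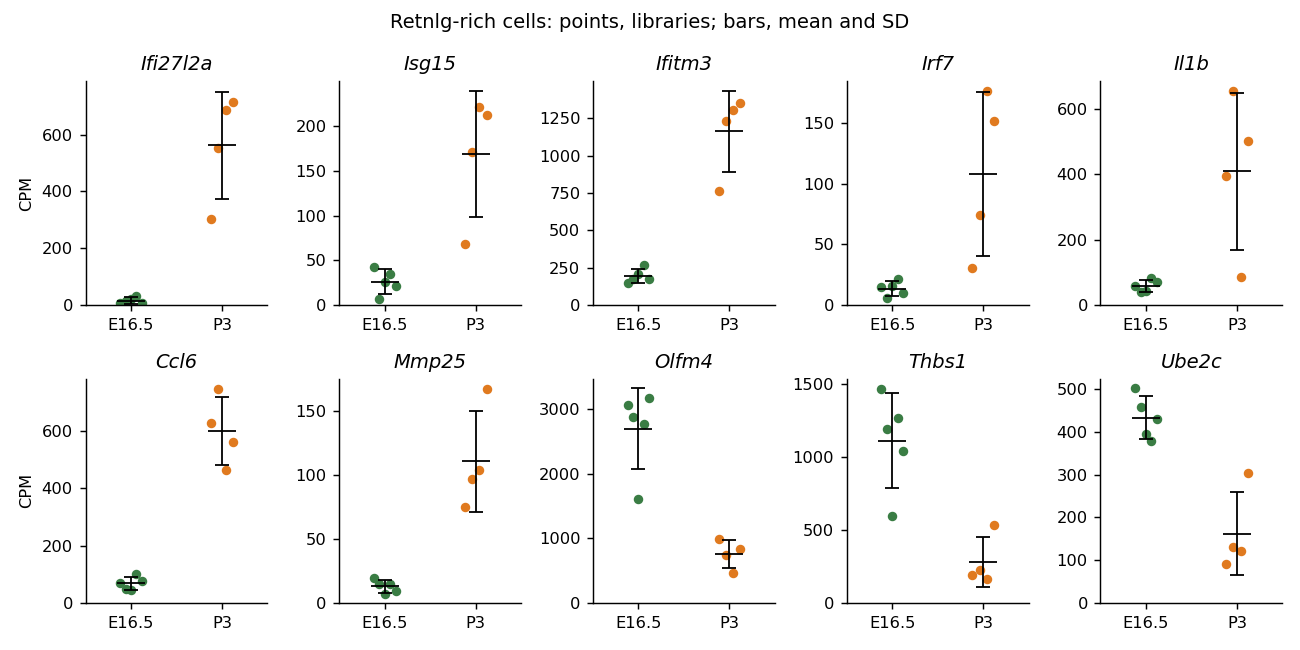
Levels of 10 genes in Retnlg-rich cells (y axis, CPM, linear from 0), 1 point per library for the 5 E16.5 libraries (green) and the 4 P3 libraries (orange), with bars for the mean and SD. Ifi27l2a, Isg15, Ifitm3, Irf7, Ccl6 and Mmp25 are higher in every P3 library, and Olfm4, Thbs1 and Ube2c are lower in every P3 library. For Ifi27l2a, Ifitm3, Ccl6, Mmp25, Il1b, Olfm4 and Thbs1 the lack of overlap was a condition for naming them by size. The P3 point of Il1b in P3 Jag1Ndr/Ndr 1, at 85.7 CPM, lies near the E16.5 libraries.

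Antigen presentation genes changed as well. Of 11 tested, 6 rose (H2-K1, Tap1, Psmb8, Cd74, H2-Aa, H2-Eb1) and 1 fell (H2-T23). The filter on low counts kept genes with enough counts at 1 stage only here too. Cd74 and H2-Aa are among 7 dendritic cell markers whose sum at E16.5 was 6.82, 71.2, 3.22, 8.95 and 4.72 CPM. Cd74 thus passed the filter through the P3 libraries and H2-Aa mainly so, and the 6 rises include both. The calls of H2-Aa and H2-Eb1 were lost without P3 Jag1Ndr/Ndr 1 and by DESeq2, and that of H2-T23 after thinning. The class I gene H2-K1 was at 44.3, 26.7, 51.5, 51.5 and 35.9 CPM and then 115, 259, 284 and 213 CPM (log2 fold change 1.95, SE 0.28, edgeR adjusted p = 6.6e-05). The class II genes Cd74 and H2-Aa are made by B cells, macrophages and dendritic cells, and at P3 they were uneven: Cd74 stood at 137, 388, 835 and 213 CPM and H2-Aa at 3.95, 33.3, 334 and 15.2 CPM, both highest in P3 Jag1Ndr/Ndr 1. The 7 dendritic cell markers in Retnlg-rich cells summed to 3.22 to 71.2 CPM at E16.5 and 142 to 1213 CPM at P3, with Cd209a and Siglech at 0, and the 7 macrophage markers to 39.7 to 260 CPM and 106 to 1038 CPM. The 8 B cell markers there summed to 266 to 504 CPM at E16.5 and 582 to 1109 CPM at P3. The part of RNA or cells of those types in the class II result was not tested.

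Among the genes named by size were several of secreted proteins. Ccl6, a chemokine, went from 70.4, 48.6, 45.9, 100.1 and 77.4 CPM to 629, 748, 465 and 562 CPM (log2 fold change 2.82, SE 0.29, edgeR adjusted p = 1.7e-06), while all other barcodes held 7.15 to 17.3 CPM and 25.1 to 63.1 CPM. Il1b went from 59.1, 40.5, 43.6, 82.8 and 71.7 CPM to 395, 654, 85.7 and 501 CPM. P3 Jag1Ndr/Ndr 1 was barely above the highest E16.5 library. The log2 fold change was 2.46 (SE 0.39, edgeR adjusted p = 0.00014), and the call was lost without P3 A and B. The 501 CPM of P3 Jag1Ndr/+ 1 were 33 UMIs, held by 15.2% of its 33 Retnlg-rich cells. Lrg1 rose from 58.3 to 82.9 CPM to 139.8 to 656 CPM, and Pla2g7, which breaks down platelet-activating factor, from 19.4 to 52.9 CPM to 99.2 to 353 CPM; both calls were likewise lost without P3 A and B. Mmp25, a membrane-bound metalloprotease of neutrophils, went from 6.89 to 19.3 CPM to 75.1 to 167 CPM. Of 16 inflammatory response genes 4 rose (Il1b, Ier3, Ier2, Gadd45b) and 2 fell (Osm, Zfp36), and the 4 rises were lost without P3 A and B. The cytokine gene Osm went from 223, 133, 146, 275 and 139.7 CPM to 85.6, 114, 63.2 and 30.4 CPM (log2 fold change -1.43, SE 0.32, edgeR adjusted p = 0.0031).

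Olfm4, Thbs1 and Plaur fell. Olfm4, a secondary granule protein present in a subset of neutrophils, went from 3060.0, 2872, 1607, 2768 and 3173 CPM to 987, 744, 469 and 835 CPM (log2 fold change -2.10, SE 0.30, edgeR adjusted p = 6.3e-05). Camp-rich cells of the same libraries went from 1686 to 2925 CPM to 667 to 936 CPM, and the test of the difference between both cell groups gave -0.46 (SE 0.22, edgeR adjusted p = 0.36). Thbs1, the matrix glycoprotein thrombospondin, went from 594 to 1466 CPM to 162 to 532 CPM (log2 fold change -2.44, SE 0.33, edgeR adjusted p = 3.1e-05), and Plaur, the urokinase receptor, from 217 to 291 CPM to 75.9 to 123 CPM (log2 fold change -1.52, SE 0.25, edgeR adjusted p = 0.00021). The groups did not overlap for any of the 3, which was a condition for naming a gene by size.

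By the rule of size, the 15 largest rises of 155 qualifying genes were Ifi27l2a, Oasl2, Rtp4, Oas3, Ccl6, Mmp25, Pla2g7, Il1b, Lrg1, Ifitm3, Neurl3, Ifitm2, Fam122a, 9930111J21Rik2 and Jaml. The 15 largest falls of 22 included Ptp4a1, Thbs1, Olfm4, Nt5e, Zfp36, Plaur, AA467197, Myadm, Osm, H2-T23, Notch2, Rgs18, Vcl and Mfsd14a. Ptp4a1 was at 105 to 168 CPM at E16.5 and at 3.95, 0, 0 and 0 CPM at P3, and all other barcodes went from 46.3 ± 16.7 CPM (SD, n = 5) to 0.676 ± 0.249 CPM (SD, n = 4). The 2 stages were counted against different gene lists, and the part of the gene lists in this result was not tested. Of 9 Notch pathway genes 3 fell (Notch2, Maml1, Adam10) and 0 rose. The fall of Notch2, a receptor for Jag1, from 60.2, 74.5, 57.4, 68.2 and 94.4 CPM to 38.2, 51.5, 9.02 and 15.2 CPM (log2 fold change -1.24, SE 0.32, edgeR adjusted p = 0.0069) was lost at an S100a8 and S100a9 minimum of 10%, without doublet candidates and after thinning. The Notch2 values of P3 Jag1Ndr/Ndr 1 and P3 Jag1Ndr/+ 1 rest on few UMIs, and 15.2 CPM in the latter is 1 UMI. Jag1 itself was between 0 and 4.86 CPM in Retnlg-rich cells.

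Proliferation genes fell: 8 of 20 were lower and 0 higher at P3, with a median log2 fold change of -0.65. The 8 were Mki67, Cdk1, Ccnb1, Ccna2, Birc5, Ube2c, Hmgb2 and Cks2. Without P3 A and B 6 of the 8 calls were lost, all but Ube2c and Cks2. Ube2c, which tags mitotic cyclins for destruction, was at 502, 458, 395, 378 and 430.5 CPM at E16.5 and 90.9, 132, 122 and 304 CPM at P3 (log2 fold change -1.94, SE 0.28, edgeR adjusted p = 6e-05). The groups did not overlap. Mki67 was at 537, 624, 364, 383 and 524 CPM and at 101, 206, 392 and 607 CPM, so the groups overlapped; its adjusted p of 0.021 in edgeR was lost without P3 A and without P3 B. Among transcription factors Cebpe, Spi1, Klf2, Fos and Rara rose and Cebpb and Fosl2 fell, of 21 tested. Cebpe went from 122, 121, 125, 168 and 109.5 CPM to 267, 312, 235 and 395 CPM (log2 fold change 0.85, SE 0.24, edgeR adjusted p = 0.013), and Camp-rich cells from 293 to 411 CPM to 642 to 924 CPM. The calls for Cebpe, Klf2 and Rara were lost without P3 A and B, and that for Fos under 14 of 22 alternatives. Of 14 iron and heme genes 4 fell (Slc11a2, Tfrc, Blvrb, Ncoa4) and 1 rose (Hmox2), and the calls of Slc11a2 and Blvrb were lost without P3 A and B. The 8 erythroid markers in the same cells summed to 208304 to 346156 CPM at E16.5 and 111299 to 194627 CPM at P3. The part of erythroid RNA in the iron and heme list and in the proliferation list was not tested.

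**Figure D5:**
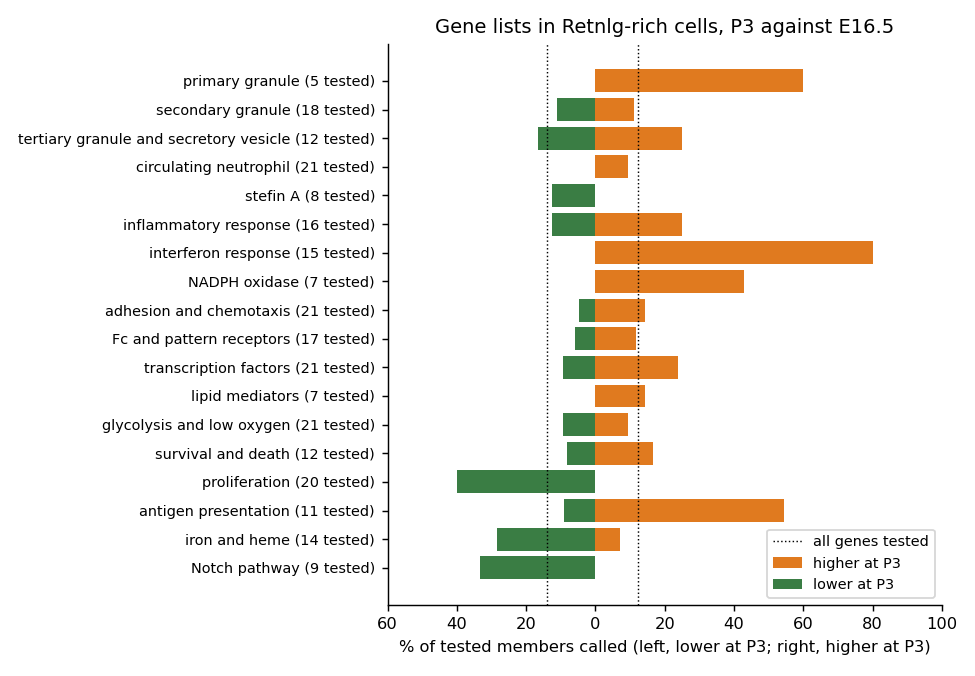
Percent of the tested members of each gene list (x axis) that were higher (right, orange) or lower (left, green) at P3 in Retnlg-rich cells at an adjusted p under 0.05 in edgeR, with the number tested beside each list and dotted lines at the 12.4% and 13.9% of all genes. Interferon response reaches 12 of 15 to the right and proliferation 8 of 20 to the left.

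Whether the stage difference itself changed with maturation was tested in a fit that held both Retnlg-rich and Camp-rich cells of each library. The difference between the stages differed for 196 of 10298 genes (1.9%), more positive in Retnlg-rich cells for 76 and more negative for 120; with another scaling the split was 100 and 105. Proliferation genes stood out in number: 12 of 20 were more negative and 0 more positive. Of these 12 calls, 9 were lost without P3 A, 4 without P3 B and 5 at 2000 UMIs or more. Calls lost by DESeq2 included those of Top2a, Cdk1 and Ccnb2. Ube2c, which fell in Retnlg-rich cells, was at 351 to 456 CPM at E16.5 and 354 to 409.8 CPM at P3 in Camp-rich cells, and the difference of differences was -1.82 (SE 0.22, edgeR adjusted p = 1.1e-06). Hmmr, a spindle protein gene, gave -1.98 (SE 0.26, edgeR adjusted p = 4.2e-06), with 87.2 to 137 CPM in Camp-rich cells over all 9 libraries and 11.9, 33.3, 22.6 and 60.7 CPM in Retnlg-rich cells at P3. Ltf gave -1.69 (SE 0.23, edgeR adjusted p = 7.6e-06): its mean went in Camp-rich cells from 3253 ± 544 CPM (SD, n = 5) to 6377 ± 1289 CPM (SD, n = 4) and stood at 996 ± 289 and 732 ± 311 CPM in Retnlg-rich cells. Camp and Ngp set both gates, and Ltf is made with them.

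Some inflammatory and immediate early genes were more positive in Retnlg-rich cells, with calls that changed with the UMI minimum. Of 20 inflammatory response genes 8 were more positive (Ccl3, Ccl4, Cxcl2, Ier3, Socs3, Zfp36, Dusp1, Atf3) and 0 more negative, and all 8 calls were lost at 2000 UMIs or more. Of 24 transcription factors 5 were more positive (Jun, Junb, Jund, Fos, Egr1), all 5 of them immediate early genes; 4 of the 5, all but Egr1, were lost at 2000 UMIs or more, Jun, Junb and Jund also without P3 A and without P3 B, and Egr1 without P3 B. Fos was at 493, 299, 324, 441 and 319 CPM at E16.5 and 846, 1113, 406 and 911 CPM at P3 in Retnlg-rich cells, against 93.3 to 211 CPM and 79.2 to 153 CPM in Camp-rich cells (difference of log2 fold changes 1.26, SE 0.23, edgeR adjusted p = 0.0007). Cxcl2 gave 1.33 (SE 0.29, edgeR adjusted p = 0.005); in Retnlg-rich cells it stood at 104 to 729 CPM with no stage call (log2 fold change -0.21, SE 0.42, edgeR adjusted p = 0.76), and in Camp-rich cells its mean went from 33.8 ± 39.1 to 8.55 ± 3.66 CPM. Immediate early genes respond to tissue dissociation, which differed between the stages; its part was not tested. The genes with the largest positive values were H2-Q10, Wfdc17, Ccrl2, Cd14 and Hdc. The calls of Wfdc17 and Ccrl2 were lost without P3 B, that of Wfdc17 also by DESeq2 and that of Ccrl2 also at 2000 UMIs or more. H2-Q10, a class I gene secreted by liver, was at 104, 219.6, 22.6 and 75.9 CPM in Retnlg-rich cells at P3 and at 6.53 to 11.7 CPM in all other barcodes of that stage. The number of genes that differed was 640 instead of 196 without P3 Jag1Ndr/Ndr 1, 55 without P3 A and 71 without P3 B.

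The whole gate gave more calls than its Retnlg-rich cells. With 9121 genes tested, 1804 rose (19.8%) and 1792 fell (19.6%) at P3. Of the 15 largest qualifying rises, 11 could be tested in Retnlg-rich cells and 10 rose there too; the exception was Chil3, a secreted chitinase-like protein, at 24.3 to 78.9 CPM at E16.5 and 54.1 to 137 CPM at P3 in those cells (log2 fold change 0.67, SE 0.31, edgeR adjusted p = 0.12). In cells low in both sets Chil3 was at 84.9 to 824 CPM and 893 to 4227 CPM. Of the 15 largest falls, all 15 were tested and 13 fell in Retnlg-rich cells, while Ltf and 2010005H15Rik did not pass. Retnlg-rich cells are part of the gate and came from the same libraries, so these counts are no separate check. Of all genes tested in Retnlg-rich cells, 12.4% rose and 13.9% fell. The largest rise was Atp6v0c, a proton pump subunit, at 0.569 to 3.44 CPM at E16.5 and 821 to 1083 CPM at P3 in gated cells. All other barcodes went from 0.919 ± 0.374 CPM (SD, n = 5) to 328 ± 17.8 CPM (SD, n = 4), and the different gene lists of the stages apply here as for Ptp4a1. In the fit of the whole gate against Camp-rich cells, the stage difference differed for 171 of 10707 genes (1.6%), 66 more positive and 105 more negative; another scaling gave 44 and 144.

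Elane-rich cells had their own stage differences: 1169 of 7637 genes rose (15.3%) and 1314 fell (17.2%). Without P3 A and B 1643 genes changed instead of 2483. Calls of single genes in Elane-rich cells, here and below, were not followed under the alternatives. Of 8 genes of the NADPH oxidase, the enzyme of the respiratory burst, 7 rose, among them Cybb, Cyba, Ncf1 and Rac2. Ncf1 was at 195, 243, 149.5, 173 and 146 CPM at E16.5 and 319.8, 331, 389 and 359 CPM at P3 (log2 fold change 0.66, SE 0.15, edgeR adjusted p = 0.0029). In Retnlg-rich cells 3 of 7 rose (Cyba, Ncf4, Rac2), all 3 lost without P3 A and B; the difference between both groups of cells was not tested. Of 9 primary granule genes other than those used to sort the cells, 6 rose (Prss57, Cst7, Ctsc, Gstm1, Hexa, Cd63) and 1 fell, Ctsg, at 2071, 1090.0, 1541, 2219 and 1645 CPM and then 1556, 1256, 1169 and 1133 CPM (log2 fold change -0.72, SE 0.21, edgeR adjusted p = 0.016).

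Of 8 tested stefin A genes 7 fell in Elane-rich cells, 8 in the whole gate and 1 in Retnlg-rich cells (BC117090, lost without P3 A and B, without doublet candidates, after thinning and without P3 B); the difference between the cell groups was not tested. Stfa1 was at 28522, 29944, 30219, 26913 and 27896 CPM at E16.5 and 20547, 20785, 11439.9 and 16191 CPM at P3 (log2 fold change -1.02, SE 0.18, edgeR adjusted p = 0.00039), with no overlap. Of 17 secondary granule genes 8 rose and 2 fell: Chil3 went from 83.9, 144, 19.7, 196 and 322 CPM to 516, 909.9, 467 and 458 CPM (log2 fold change 1.71, SE 0.44, edgeR adjusted p = 0.0063), and Fcnb, ficolin B, from 675 to 859 CPM to 846 to 2325 CPM. Monocyte markers in Elane-rich cells summed to 306 to 575 CPM at E16.5 and 463 to 1296 CPM at P3. Cebpe rose in these cells too (log2 fold change 0.96, SE 0.20, edgeR adjusted p = 0.0013). Of 20 proliferation genes 7 fell and 2 rose, and Mki67 gave -0.25 (SE 0.18, edgeR adjusted p = 0.32).

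The genotype comparison set the 2 E16.5 Jag1Ndr/Ndr libraries against the 3 others, of which 1 carries both a Jag1+/+ and a Jag1Ndr/+ label. In the gated cells 0 of 9697 genes passed (0%) in edgeR; before adjustment 489 were under 0.05, and 1 gene passed in DESeq2. In Retnlg-rich cells 0 of 6758 passed (0%) in edgeR, with 217 under 0.05 before adjustment and 0 passing in DESeq2. Without E16.5 Jag1Ndr/+ 1 edgeR called 78 genes in gated cells, and without E16.5 Jag1Ndr/Ndr 2 it called 28 in Retnlg-rich cells. None of the lists held a called gene; the 13 tested interferon genes had a median log2 fold change of 0.53 in Retnlg-rich cells. Gated cells were 1.18% of passing barcodes in Jag1Ndr/Ndr libraries and 1.47% in the others (exact permutation p = 0.8), and Retnlg-rich cells were 71.0% and 54.3% of gated cells (exact permutation p = 0.4). With 2 against 3 libraries the smallest p is 0.2, so no share could pass.

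At P3 only 1 library with the Jag1Ndr/Ndr label and 1 with the Jag1Ndr/+ label could be set side by side, so these values have no replicate check and no test. The Jag1Ndr/Ndr 1 cells are those left after the barcodes of A were taken out, and their genotype rests on the label alone. Elane-rich cells were 65.0% of gated cells in Jag1Ndr/Ndr 1 (exact binomial 95% interval 58.4% to 71.3%) and 45.9% in Jag1Ndr/+ 1 (36.4% to 55.7%). In Retnlg-rich cells Retnlg was at 10186 CPM (exact Poisson 95% interval 9770 to 10615) against 18392 (17370 to 19458), Mmp8 at 1019 (891 to 1161) against 2035 (1705 to 2410), Il1b at 85.7 (51.6 to 134) against 501 (345 to 704) and Cxcr2 at 90.2 (55.1 to 139) against 547 (383 to 757). Ly6g was at 1403 (1251 to 1568) and 1397 (1126 to 1714), and Isg15 at 221 (164 to 292) and 213 (116 to 357). Ltf was higher in the Jag1Ndr/Ndr library, at 1164 (1026 to 1315) against 577 (408 to 792). Retnlg and Mmp8 were also used to choose these cells. By CPM of summed UMIs, Retnlg, Mmp8, Il1b and Cxcr2 were lower in the Jag1Ndr/Ndr library, and Ly6g and Isg15 were close. The intervals cover counting error only, with UMIs taken as independent, and 33 Retnlg-rich cells stand behind the Jag1Ndr/+ values. The 33 Il1b UMIs of the Jag1Ndr/+ library lay in 15.2% of those cells, while 21.4% of the Jag1Ndr/Ndr cells held an Il1b UMI. With cells thinned to 1000 UMIs these shares were 12.1% in Jag1Ndr/+ 1 and 7.14% in Jag1Ndr/Ndr 1. P3 A and B, with genotype unclear, had 15349.5 and 20029 CPM of Retnlg and 395 and 654 CPM of Il1b.

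Shares of cells with at least 1 UMI were compared after each cell had been thinned to 1000 UMIs. Retnlg was detected in 60.8% ± 13.9 of gated cells at E16.5 (SD, n = 5) and 38.2% ± 18.7 at P3 (SD, n = 4). In globin-rich erythroid barcodes thinned to the same number, the shares were 1.1% and 0.8%, the level of free RNA. The Chil3 share went from 5.53% ± 2.08 to 23.3% ± 3.74 and Ltf went from 27.1% ± 5.32 to 11.1% ± 2.42 in gated cells, each with an exact permutation p of 0.0159 and 0.0952 after adjustment over 12 genes. In the erythroid barcodes the Chil3 share was 0.68% and 2.03% and the Ltf share 1.88% and 4.13%, so this background was higher at P3 for both. None of the 12 genes in gated cells and none of 9 in Retnlg-rich cells passed 0.05 after adjustment. The smallest p this test can give is 0.0159, so a gene could pass only if several reached it together. The lack of a call is thus set in part by the number of libraries.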

How the data were processed

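Single-cell RNA was measured on the 10x platform. The authors deposited whole-number UMI counts per gene and barcode, with no normalisation; per the submitters' processing notes Cell Ranger 2.1.1, R 4.1.2, Seurat and mm10 were used, while per the file headers the matrices were written by version 3.1.0 at E16.5 and 3.0.2 at P3. The 22519 genes shared by both stages (Ensembl ID) were tested. The members and gene lists were chosen with earlier results of these data known. Counts were summed per library and cell group and fitted with edgeR 4.0.16 (quasi-likelihood, TMM, filterByExpr, R 4.3.3, limma 3.58.1); DESeq2 1.42.0 was an alternative. The SE beside an edgeR log2 fold change is the absolute fold change divided by the square root of the test's F statistic, so it is approximate. The scripts were tested on simulated data. CPM values divide a gene's UMIs by all UMIs of the group. Shares were compared with two-sided exact permutation tests (scipy 1.17.1). No doublet caller was run: the planned rule left 0 gated barcodes at E16.5, so a relative rule, set after seeing the data, was tried (the 10% of gated barcodes with the highest share of other-class markers or of globin, and those over 3 times the median UMIs). The same holds for the Retnlg-rich and Elane-rich groups and for leaving out P3 A and B. Libraries are 1 individual each by the labels. Genes were named by size: for stage, among adjusted p under 0.05, at least 50 CPM, no overlap of stages and at least 2 times the level of other barcodes, the 15 largest changes each way; for the difference of differences, the 5 largest each way at 50 CPM or more; against Camp-rich cells, the 15 largest ratios each way at 100 CPM or more with 1 direction in all 9 libraries; besides, called list members. Gene coordinates are GENCODE vM21 (22442 of 22519 genes matched). Some genes that met these rules are not reported here.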

Additional observations from a re-analysis of the deposited data

Results flagged for a closer look

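In 6 of 104 groups of values checked, 1 library stood far from the rest of its group by Dixon's test; chance gives about 1 in 20. In Retnlg-rich cells at E16.5 the median globin share was 28.2% in Jag1Ndr/+ 1 and 16.4% to 19.2% in the others, Olfm4 was at 1607 CPM in Jag1Ndr/+ 1 and 2768 to 3173 CPM in the others, and Hdc was at 195 CPM in Jag1+/+ 1 and 81.3 to 109.6 CPM in the others. At P3, Thbs1 was at 532 CPM in Jag1Ndr/+ 1 and 162 to 224 CPM in the others, Mmp9 was at 1321 CPM in Jag1Ndr/+ 1 and 812 to 866 CPM in the others, and Ptp4a1 was at 3.95 CPM in P3 A and 0 in the others.

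The stage difference differed between Retnlg-rich and Camp-rich cells of the same libraries, by the edgeR test of the difference itself, for these 10 named genes. On the log2 scale the differences were 2.49 for H2-Q10 (adjusted p = 9.8e-07), 2.17 for Wfdc17 (adjusted p = 0.00045), 1.50 for Ccrl2 (adjusted p = 0.0017), 1.48 for Cd14 (adjusted p = 5e-05) and 1.37 for Hdc (adjusted p = 4e-05). They were -2.06 for Vpreb1 (adjusted p = 0.041), -1.98 for Hmmr (adjusted p = 4.2e-06), -1.82 for Ube2c (adjusted p = 1.1e-06), -1.70 for Kif11 (adjusted p = 0.00045) and -1.69 for Ltf (adjusted p = 7.6e-06). The call for Vpreb1 was lost under 9 of 19 alternatives, among them DESeq2, another scaling and 2000 UMIs or more. That for Wfdc17 was lost by DESeq2 and without P3 B. That for Ccrl2 was lost at 2000 UMIs or more and without P3 B. In Retnlg-rich cells Wfdc17 was at 112 and 215 CPM in P3 A and B and at 13.5 and 0 CPM in the other P3 libraries. Vpreb1, a B cell precursor gene, was at 103 to 174 CPM in all other E16.5 barcodes and at 35.8 to 95.3 CPM in E16.5 Retnlg-rich cells.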

How the results depend on the processing

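The cause of the changes listed here was not tested, except where fewer cells, UMIs or libraries entered by construction. The stage count in gated cells (3596) became 1208 at an S100a8 and S100a9 minimum of 10%, 1972 without doublet candidates, 867 after thinning to 1000 UMIs and 1945 without genes that could be free RNA. In Retnlg-rich cells (1533) it became 987 without doublet candidates, 663 after thinning, 752 without free RNA candidates, 449 without P3 A and B, and 995 (without P3 B) to 1753 (without P3 Jag1Ndr/Ndr 1) with 1 library left out. In Elane-rich cells (2483) it became 881 at the 10% minimum, 296 after thinning and 1643 without P3 A and B. The genotype count in gated cells (0) became 1 by DESeq2, 68 without a filter on low counts, 1 after thinning and 0 to 78 with 1 library left out; in Retnlg-rich cells (0) it became 17 without the filter, 1 at Camp and Ngp under 0.5% and 0 to 28. The difference of stage differences in gated cells (171) became 441 without the filter, 2 at the 10% minimum, 21 without doublet candidates, 23 after thinning and 26 (without P3 A) to 289 (without E16.5 shared). In Retnlg-rich cells (196) it became 119 by DESeq2, 651 at the 10% minimum, 318 at Camp and Ngp under 0.5%, 81 at 2000 UMIs or more and 55 to 640. The gated share of passing barcodes, P3 minus E16.5, turned to -0.0176 percentage points at the 10% minimum and -7.05 without globin-rich barcodes in the denominator, and ran from -0.0209 to 0.559 with 1 library left out. For Jag1Ndr/Ndr minus the others at E16.5 it ran from -0.829 to 0.239, and against S100a8-rich barcodes from -6.64 to 3.89, with 0.262 at the 10% minimum. Without globin-rich barcodes in the denominator the Retnlg-rich share of passing barcodes, P3 minus E16.5, moved from -0.150 to -4.90 and the Elane-rich share from 0.142 to -2.11. This setting keeps globin-rich gated cells (median globin 10.7% to 25.3% in E16.5 libraries, 0.384% to 0.589% in P3 libraries) while other barcodes like them leave, so these values follow in part from its construction and are not read as a stage difference. The Retnlg-rich share of passing barcodes turned to 0.00208 for stage at Camp and Ngp under 0.5% and ran from -0.269 to 0.346 for genotype; the share low in both ran from -1.89 to 4.45 for genotype. Without doublet candidates 3 of 9 markers passed in the detection test of Retnlg-rich cells. Of the 94 stage results named in Retnlg-rich cells, 36 kept their call under every alternative in which they were tested, and 10 of 49 for the difference of differences.

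Same-numbered libraries did not deviate together (median correlation 0.118 for genotype and -0.003 for stage), so replicate numbers were only names. With a replicate block the stage count was 3497 in gated, 1393 in Retnlg-rich and 2491 in Elane-rich cells, and the genotype count 0 in both.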

Other observations

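Further gene groups were counted in Retnlg-rich cells, where 12.4% of all tested genes were higher and 13.9% lower at P3. Of 21 glycolysis and low oxygen genes 2 rose (Gpi1, Pkm) and 2 fell (Pfkl and the glucose transporter gene Slc2a1). Of 12 survival and death genes, the pyroptosis genes Casp1 and Gsdmd rose and the survival gene Bcl2l1 fell. Of 21 adhesion and chemotaxis genes 3 rose (Selplg, Ltb4r1, Adgre5) and 1 fell (Fpr2). Of 17 Fc and pattern receptor genes 2 rose (Fcgr3, Tyrobp) and 1 fell (Trem3). Without P3 A and B the calls of all these genes but Slc2a1, Fpr2 and Trem3 were lost. Those of Fpr2 and Trem3 were lost at an S100a8 and S100a9 minimum of 10%, without doublet candidates and after thinning. That of Fpr2 was also lost without P3 B. Of the fetal program list, 3 of 13 genes had enough counts to be tested, with a median log2 fold change of 0.02.

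The oxidase subunit gene Cyba was at 651, 524, 677, 682 and 655 CPM at E16.5 and at 1535, 2096, 1403 and 1747 CPM at P3 (log2 fold change 1.06, SE 0.25, edgeR adjusted p = 0.004). Rac2, the GTPase of the same enzyme, was at 535 to 638 CPM at E16.5 and at 1231 to 1640.2 CPM at P3 (log2 fold change 0.98, SE 0.23, edgeR adjusted p = 0.0042). The stages did not overlap for either gene, and both calls were lost without P3 A and B. In all other barcodes Cyba was also higher at P3, at 477 ± 98.5 CPM (SD, n = 4) against 114 ± 21.8 CPM (SD, n = 5), and Rac2 was at 375 ± 39.8 CPM (SD, n = 4) against 99.6 ± 23.5 CPM (SD, n = 5). The stage difference of Cyba minus that in Camp-rich cells was 0.02 on the log2 scale (SE 0.21, edgeR adjusted p = 0.98), and that of Rac2 was -0.06 (SE 0.21, edgeR adjusted p = 0.94).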
